A study of Mus musculus with 8 samples.

Results

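The wells described here lay at positions 1, 3, 4, 5, 10, 11 and 12 of each run of 16 wells in the 4 plate2 libraries, and their leading genes were those of erythroid progenitors. Each library mainly used 96 barcodes, called its own below, and a well counted when its barcode was one of these and it held at least 1000 transcripts other than spike-in RNA. This gave 71 wells of the 417 that met the same 2 conditions in the whole series, and left 115 plate2 wells at the other 9 positions. The positions had been selected on the levels of Car1 and the other marker genes in these same files, so every comparison of these positions with the rest of plate2 is a description and carries no test. Genotype was not used to pick the wells, and the genotype comparisons below are tested.

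RNA of sorted single cells from mouse bone marrow was sequenced by CEL-Seq2, in which each captured transcript carries a molecular identifier. The design text states 768 cells sorted through 8 gates that run from stem cells to granulocyte, megakaryocyte and erythroid progenitors, and the files hold 1536 barcode columns, of which 768 are the libraries' own barcodes. No label ties a plate2 well to a gate. The wild type group had 34 of the 71 wells, 19 in library 1 and 15 in library 2. The other group, labelled Mof -/+, had 37 wells, 19 in library 1 and 18 in library 2, and its mice carried 1 copy of Mof, now called Kat8, which encodes a histone acetyltransferase of the MSL and NSL complexes. The labels give no age, no strain, no details of the allele, and nothing that says whether the 2 libraries of a genotype came from separate mice, so a p-value between genotypes measures the spread between libraries, which may be technical.

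Erythroid progenitors arise from progenitors shared with megakaryocytes and divide several times before they fill with haemoglobin. Gata1 switches on the erythroid programme and takes over sites held earlier by Gata2, Klf1 acts with it on globin, membrane and haem genes, and the erythropoietin receptor Epor keeps the cells alive. Carbonic anhydrase 1 (Car1) is switched on early in this lineage, before the globins.

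Among the 168 wells with own barcodes at the 7 positions, the 97 wells that were not kept had a median of 269 transcripts and the 71 kept had a median of 14095. The lowest kept wells held 1015 and 1018 transcripts, with 5 and 4 of Car1. The highest wells left out held 924 and 880 transcripts, with 1 transcript of Car1 in each. Of the positions just outside, 13 (6 kept wells) had a mean of 707 CPM of Car1 (counts scaled to a common total for each well) but no Ermap or Epor, with 954 CPM of Gata2. Position 16 (5 kept wells) had 600 CPM of Car1 but held all 6 markers, with Ermap at 613, Aqp1 at 906, Klf1 at 271, Gata1 at 163 and Epor at 91.0 CPM, and 5108 CPM of the beta globin Hbb-bs. The first 3 of these were above the mean of every one of the 7 positions, whose highest were 463 CPM of Ermap, 749 CPM of Aqp1 and 210.1 CPM of Klf1. The lowest mean of Car1 at a position of the 7 was 1698 CPM, at position 1.

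Each plate2 library shared its own barcodes with the library of the other genotype. Of kept wells at the 7 positions, 6 barcodes were common to heterozygous library 1 and wild type library 2, and 10 to heterozygous library 2 and wild type library 1. The barcodes outside each plate2 library's own followed the totals of the libraries that owned those barcodes, at 1.39% to 3.48% of their transcripts, a fit that took up 95.5% to 97.6% of the variance. At the mean rate of 1.90%, the estimated carry-over reached 20% of transcripts in 3 of the 71 wells, all wild type, and was at most 4.07% in the others. In these 3 wells it was 75.4%, 66.2% and 46.1%, and they held 3, 4 and 1 transcripts of Car1 in that order. They stayed among the 71 wells and in the wild type group. Doublets were not called, because each well was meant to receive 1 sorted cell.

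Promoters of the marker genes are shown because their genes were high together at the 7 positions. RefSeq (GRCm38.p6) gave a start for 5 of the 6 markers, Ermap, Gata1, Aqp1, Klf1 and Epor. The 250 bases before each start were searched on both strands for a GATA word, AGATAA with T also allowed as its first letter and G as its last, and for the Klf1-type word CCNCNCCC, in which N is any base. Overlapping matches were counted. Capitals mark matches in the lines below, read 5′ to 3′ on the gene's strand.
Klf1 (chr8:84901732-84901981, + strand): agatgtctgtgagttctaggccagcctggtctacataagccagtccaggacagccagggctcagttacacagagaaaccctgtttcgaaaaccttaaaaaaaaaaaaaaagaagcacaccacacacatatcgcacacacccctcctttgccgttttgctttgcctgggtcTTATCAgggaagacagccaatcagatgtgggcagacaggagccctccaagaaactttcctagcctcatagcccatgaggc
Ermap (chr4:119189996-119190245, - strand): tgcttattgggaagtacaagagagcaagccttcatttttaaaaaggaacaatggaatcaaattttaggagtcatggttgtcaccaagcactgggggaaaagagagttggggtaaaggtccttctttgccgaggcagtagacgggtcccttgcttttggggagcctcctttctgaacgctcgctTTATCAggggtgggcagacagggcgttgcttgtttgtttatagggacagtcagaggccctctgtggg
Epor (chr9:21963577-21963826, - strand): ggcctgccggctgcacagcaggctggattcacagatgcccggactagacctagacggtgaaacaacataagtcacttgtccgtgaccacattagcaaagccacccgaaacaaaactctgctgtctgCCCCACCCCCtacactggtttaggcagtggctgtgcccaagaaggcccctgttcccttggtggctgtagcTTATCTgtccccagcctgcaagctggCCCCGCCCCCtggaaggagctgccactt
Gata1 (chrX:7967911-7968160, - strand): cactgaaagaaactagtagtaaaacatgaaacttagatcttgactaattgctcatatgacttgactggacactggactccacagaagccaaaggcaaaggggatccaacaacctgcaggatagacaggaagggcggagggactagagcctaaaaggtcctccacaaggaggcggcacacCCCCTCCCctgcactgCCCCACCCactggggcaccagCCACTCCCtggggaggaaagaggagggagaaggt
A GATA word stood before 3 of the 5 starts, in Ermap (62 to 67 bases before the start), Klf1 (75 to 80 bases) and Epor (49 to 54 bases), and each was the reverse strand of the word. It stood in 26.5% of the 32851 promoter windows of the table. The Klf1-type word was in Gata1 (3 matches), Aqp1 (3) and Epor (4), and in 45.9% of all windows. These are matches of letters and say nothing of binding.

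The 6 markers were higher at the 7 positions than at the other positions in all 4 libraries, as the rule selected. Car1 summed over the wells of a library was 2034 CPM in wild type library 1, 2146 CPM in wild type library 2, 3044 CPM in heterozygous library 1 and 3083 CPM in heterozygous library 2. At the other positions of the same libraries it was 102, 204, 22.7 and 244 CPM. No other-position sum came near the lowest of the 7-position sums. Ermap, a blood group protein of the red cell membrane, ranged over libraries from 281 to 466 CPM against 7.57 to 135 CPM at the other positions. The water channel Aqp1 ranged from 417 to 724 CPM against 49.2 to 223 CPM. The transcription factors stood lower, with Gata1 at 132 to 201 CPM against 15.1 to 52.0 CPM and Klf1 at 115 to 168 CPM against 0 to 56.3 CPM, and Epor was lowest at 45.9 to 99.96 CPM against 3.79 to 23.6 CPM. CEL-Seq2 counts 3′ ends, so these CPM values are not divided by gene length. A sum of 0 allows up to 3 transcripts, which is 8.26 to 17.2 CPM at the 7 positions and 7.08 to 12.2 CPM at the others.

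**Figure D1:**
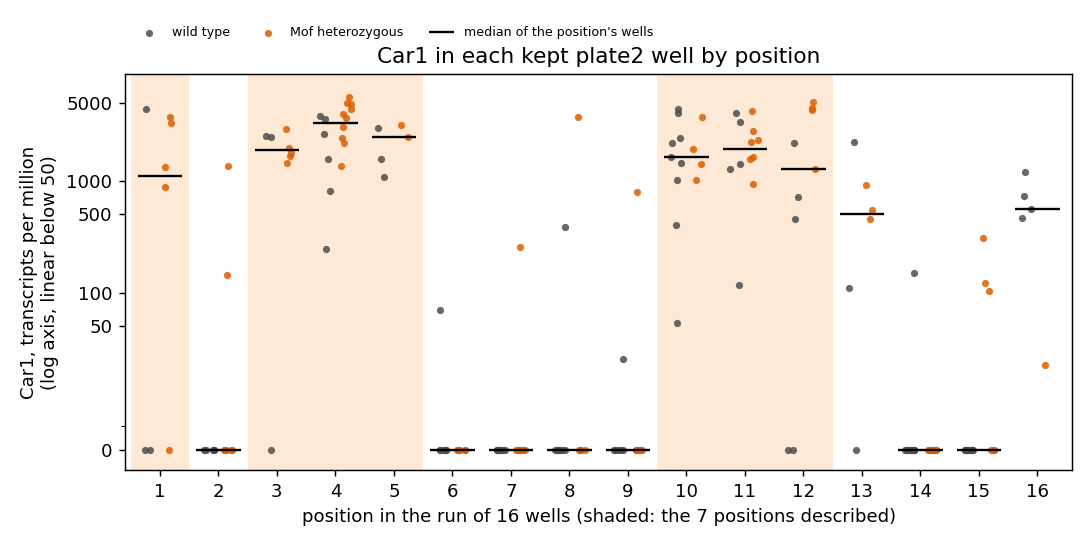
Car1 in CPM (log axis, linear below 50) in each of the 186 kept plate2 wells, by position from 1 to 16. Points are wells coloured by genotype, bars are the median of a position's wells, and the shaded bands are the 7 positions, where 60 of 71 wells were at or above 500 CPM against 9 of 115 elsewhere.

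Car1 was seen in 65 of the 71 wells, or 91.5% (exact 95% Clopper-Pearson interval 82.5% to 96.8%, counting error only), at a median depth of 14095 transcripts. At the other plate2 positions it was seen in 22 of 115 wells (19.1%, 12.4% to 27.5%) at a median of 9109 transcripts. In wells of the HSC libraries, sorted as stem cells, which should lack Car1, it was seen in 8 of 98 wells at the same positions (8.16%) and 10 of 133 wells at the others (7.52%), at medians of 2555 and 2232 transcripts. With each well thinned to 1000 transcripts, Car1 remained in 71.8% of the 71 wells, against 6.96% at the other plate2 positions and 4.08% and 5.26% of the HSC wells. Thinned shares of the 71 wells were 43.7% for Aqp1, 32.4% for Ermap, 18.3% for Gata1, 14.1% for Klf1 and 8.45% for Epor. The HSC wells at the same positions gave 5.10%, 3.06%, 2.04%, 3.06% and 0% in that order. All 6 markers were found together in 28 of the 71 wells, at least 4 of them in 52, and none in 5.

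The 71 wells differed from one another by position. Mean Car1 ran from 1698 CPM at position 1 to 3059 CPM at position 4, with wells between 0 and 5608 CPM. Klf1 was lowest at position 10, with a mean of 51.1 CPM, a median of 0 and transcripts in 5 of 13 wells. It was highest at position 4, at 210.1 CPM with transcripts in 13 of 16 wells. Gata2, the factor of stem cells and early progenitors, was highest at position 10 and lowest at position 4, while the other 5 positions stood in the same order for both genes. Its mean was 450 CPM at position 10, 410 CPM at position 3, 403 CPM at position 12 and 335 CPM at position 5, against 181 CPM at position 11, 88.1 CPM at position 1 and 86.2 CPM at position 4. The wells overlapped widely, since position 12 held wells from 0 to 2283 CPM of Gata2 and position 4 wells from 0 to 456 CPM. Itga2b, an integrin of megakaryocytes and early progenitors also known as CD41, was most frequent at position 5, in 3 of 5 wells with a mean of 196 CPM, and absent from all 8 wells at position 1. Globins were at or near 0 except at position 5, where a mean of 323 CPM of Hbb-bs came mainly from 1 well at 1578 CPM. Groups of 5 to 16 wells drawn from at most 4 libraries give these means, and no test was made between positions.

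**Figure D2:**
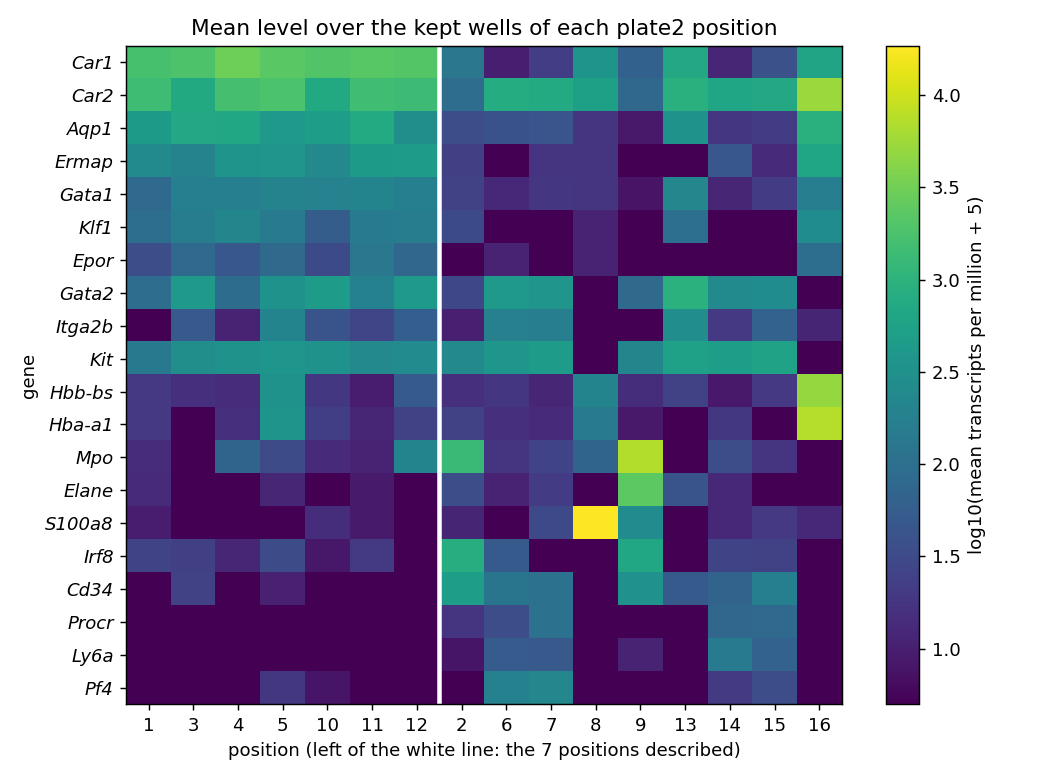
Mean level over the kept wells of each plate2 position, as log10 of CPM plus 5, for 20 genes. The 7 positions left of the white line all hold Car1, Aqp1, Ermap, Gata1, Klf1 and Epor, as does position 16, where the globins are highest. Mpo and Elane are highest at position 9 and S100a8 at position 8.

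The genes of highest ratio at the 7 positions mixed membrane, enzyme and signalling genes. Of 9432 genes measured, 13% were higher at the 7 positions in all 4 libraries and 21.8% were lower. In thinned wells the 1228 higher genes became 307 and the 2058 lower genes 463. Atp1b2, a beta subunit of the sodium pump, led with a mean of 290.0 CPM over the 4 libraries against 11.4 CPM, a log2 ratio of 4.17 (5 CPM added to each mean). Car1 followed at 4.12, then the pseudokinase Trib2 at 3.29, with 188 against 14.7 CPM, and the sphingosine kinase Sphk1 at 3.09. The metallothioneins, small metal-binding proteins, were both among the first 8, with Mt2 at 3.07 and Mt1 at 2.78. Mt2 came from 22 of the 71 wells only and its log2 ratio was 0.52 in thinned wells, where Mt1 still had 2.25. Thinning also took Sphk1 to 1.45 and Slc25a21 to 1.34. The carboxylesterase Ces2g and the protease Prss50 ranked between the metallothioneins. Further down, Epdr1 had 2.56, the interleukin 33 receptor chain Il1rl1 2.54, the mitochondrial carrier Slc25a21 2.47, the autophagy receptor Optn 2.44, Ermap 2.41, the lipid transporter Abcb4 2.34 and the ceramide glucosyltransferase Ugcg 2.27.

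Genes of other lineages were lowest. Mpo, the granule peroxidase of neutrophil precursors, had a mean of 14.7 CPM at the 7 positions against 1921 CPM, a log2 ratio of -6.61. The granule proteases Elane (-6.58), Prtn3 (-5.86) and Ctsg (-5.34), the calgranulins S100a9 (-6.66) and S100a8 (-6.57) and the monocyte gene Ly6c2 (-5.85) followed, and in thinned wells Mpo had -3.77 and Prtn3 -4.34. The stem cell factor Hlf lay on the same side at -4.87, with a transcript in 8 of the 71 wells against 66 of 115. Haemoglobin genes were lower too, Hbb-bt at -5.68 and Hba-a1 at -4.79.

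The marker lists are read against the 13% and 21.8% of all genes. All 6 erythroid progenitor markers were higher in all 4 libraries, which the rule fixed, and their summed level ran from 3214 to 4699 CPM against 98.5 to 575 CPM elsewhere. None of the 7 measured late erythroid genes was higher in all 4 libraries and 3 were lower, with a sum of 88.2 to 206 CPM against 75.8 to 4986 CPM, and Alas2, the haem enzyme of maturing red cells, was at 0. Of 15 stem cell genes, 14 were lower in all 4 libraries, the sum was 143 to 161 CPM against 1139 to 1729 CPM, and Procr, Ly6a, Fgd5 and Flt3 were at 0. Of 9 measured megakaryocyte genes 6 were lower, at a sum of 73.5 to 143 CPM against 319 to 615 CPM, with Gp1bb, Ppbp and Treml1 at 0. Granulocyte progenitor genes summed to 461 to 676 CPM against 702 to 10487 CPM, and nearly all of that was Calr, a chaperone of all cells, at a mean of 546 CPM. Mature neutrophil genes summed to at most 22.9 CPM, monocyte genes to at most 40.1 CPM, lymphoid genes to at most 80.3 CPM and basophil or mast cell genes to at most 19.3 CPM, and neither eosinophil gene found in the files was detected.

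Of 26 early erythroid enzyme and surface genes, 4 are markers on which the positions were selected. This list, like the others, was chosen with earlier results of these data known. It holds Atp1b2 and Ces2g, named above among the highest ratios, so its counts describe these data and are no independent support. Of the other 22, 11 were higher in all 4 libraries and 2 lower, with a median log2 ratio of 0.69 against -0.06 over all measured genes. In thinned wells 3 were higher and 1 lower, with a median of 0.71 against -0.03 over all measured genes. Car2 had 1679 against 1062 CPM and Mns1 248 against 83.3 CPM, while Kit, the receptor of stem cell factor, had 255 against 318 CPM. Of 18 erythroid and megakaryocyte transcription factors other than Gata1 and Klf1, 8 were higher and 5 lower. The Gata1 partner Ldb1 had 272 against 110.3 CPM, Myb 594 against 320.0 CPM and the fetal globin repressor Bcl11a 414 against 230 CPM. Lmo2, another partner, was lower at 312 against 569 CPM. Haem synthesis had 0 of 13 genes higher in all 4 libraries and 2 lower. Iron handling had 2 of 10 higher, among them the ferrireductase Steap3 with 73.0 against 25.0 CPM, and 1 lower.

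Growth genes were the other group that stood high. Of 20 genes of the Myc and ribosome biogenesis list, 19 were higher in all 4 libraries and 0 lower, with a median log2 ratio of 0.78. Of all measured genes 13% were higher and 21.8% lower, with a median of -0.06. In thinned wells 6 were higher and 0 lower, with a median of 0.61, beside 307 higher of 9432 measured genes and a median of -0.03. The nucleolar proteins Npm1 and Ncl had 2705 against 1549 CPM and 2450.5 against 1379 CPM. Genes of the nuclear-encoded respiratory chain were higher in 30 of 77 cases, with a median of 0.28, and cytosolic ribosomal proteins in 23 of 74, with 0.15. Of the cell cycle lists, 3 of 20 replication genes and 6 of 22 genes of G2 and mitosis were higher, with medians of 0.08 and 0.37. The replication count was near the share of all genes. Of 14 glycolysis genes 6 were lower, led by Pgam1 at 46.2 against 302 CPM, and 2 were higher, Ldha at 584 against 379 CPM among them. In thinned wells the medians were 0.54 for the respiratory chain, 0.24 for ribosomal proteins and -0.22 for glycolysis.

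The HSC libraries gave the same positions in wells that the rule had not used. There 98 wells at the 7 positions were set against 133 at the others with library as a block, and 0 of 1100 genes (0.00%) passed edgeR's quasi-likelihood test after Benjamini-Hochberg adjustment, with 80 at an unadjusted p under 0.05, 1 call by DESeq2 and 0 by limma-voom. Without wild type HSC library 2 edgeR called 8 genes, and without heterozygous HSC library 1 it called 3. Car1 had 215, 588, 820 and 0 CPM at the 7 positions in the 4 HSC libraries, against 69.3, 183, 192 and 40.0 CPM. It was higher in 3 libraries, and the fitted log2 difference of 1.57 (SE 0.45) had an adjusted p of 0.324 in edgeR. The 4 sums rest on 12, 38, 93 and 0 transcripts, and the 0 allows up to 40.0 CPM. The highest single wells held 12, 28 and 49 of them in wild type library 1 and 2 and heterozygous library 1. Ermap, Aqp1 and Klf1 were also higher in 3 HSC libraries, and Gata1 and Epor in 2. Among the genes of smallest p on each side, Hbb-bs (log2 difference 2.74) and Hba-a1 (2.13) were higher in all 4 libraries. Ngp (-2.98) and S100a9 (-2.81) were lower in 3. None of these passed (edgeR adjusted p from 0.104 to 0.107).

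The genotypes differed first in the makeup of their wells. The median well held 14095 transcripts in wild type library 1, 7992 in wild type library 2, 20364 in heterozygous library 1 and 15883 in heterozygous library 2, so both heterozygous libraries were deeper (exact two-sided permutation p = 0.333, the smallest that 2 against 2 libraries allow). Wild type wells had 3740 and 2469 genes at the median of each library, and heterozygous wells 4832 and 4272. After thinning to 1000 transcripts the medians were 576 and 589 against 631 and 619 genes, still without overlap. Spike-in transcripts per well overlapped, with library medians of 12 and 17 for wild type and 20 and 8.50 for heterozygous. The positions were also filled unevenly, since the high-Gata2 positions 3, 5, 10 and 12 gave 20 of 34 wild type wells (58.8%) and 15 of 37 heterozygous wells (40.5%), a grouping made after Gata2 was seen.

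At the 7 positions, a set of wells rich in Gm10800 was nearly all wild type. Gm10800 is a predicted gene model, and models named Gm and a number often cover repeats. Its median share of a well's transcripts was 6.83% and 14.5% for wild type library 1 and 2, and 2.97% and 2.63% for heterozygous library 1 and 2. It reached 20% in 13 wells, 6 in each wild type library, 1 in heterozygous library 1 and 0 in heterozygous library 2. The wells next to that line held 16.5% and 20.4%. The 13 wells had a median of 6942 transcripts and 1500 genes, and models named Gm and a number took 64.8% of their transcripts, against 17491 transcripts, 4376 genes and 8.55% in the other 58. Mitochondrial transcripts took 6.30% against 14.1%, and thinned wells still showed 327 against 621 genes. All 58 other wells held Car1 at a median of 2408 CPM. Of the 13 wells 7 held it, at a median of 53.6 CPM over the 13, and the 6 wells without Car1 were all among them. Such wells also occurred outside the 7 positions, where 22 of 115 wells reached 20% of Gm10800, 13 of them wild type. There they were less uneven between genotypes, at 8 of 35 and 5 of 26 wells in wild type library 1 and 2. Heterozygous library 1 and 2 had 7 of 26 and 2 of 28.

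**Figure D3:**
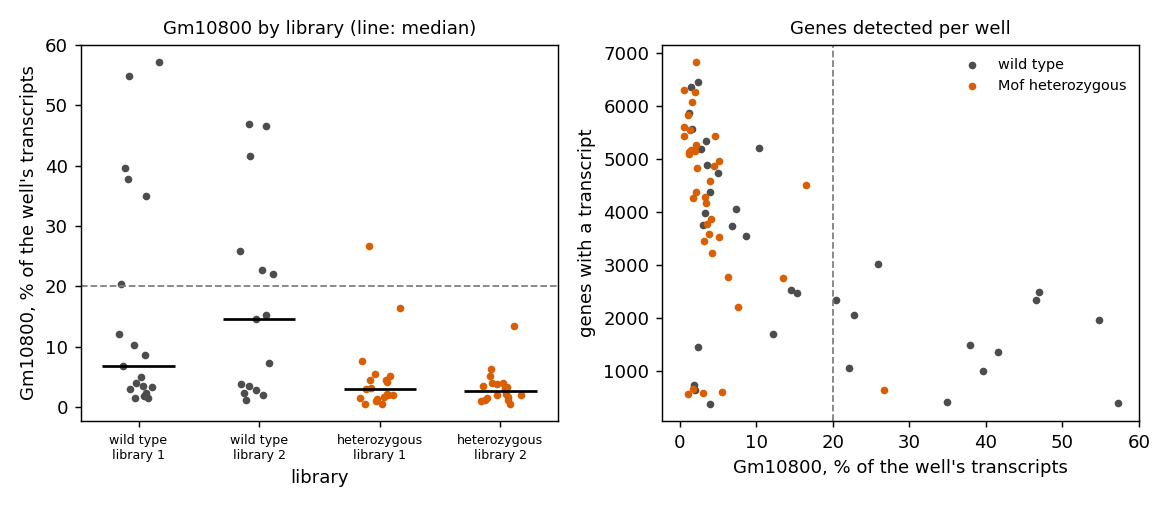
Left, the percentage of a well's transcripts from Gm10800 in each of the 71 wells by library, with the library median as a line and 20% dashed. Right, genes with a transcript per well against the same percentage, where the 13 wells right of the dashed line are 12 wild type wells and 1 heterozygous well.

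None of the 6 erythroid markers passed the test between genotypes, which uses a spread pooled over all genes. Car1 was higher in both heterozygous libraries, with the values above and no overlap, and its log2 fold change was 0.32 (SE 0.24, edgeR adjusted p = 0.852). Aqp1 had 417 and 494 CPM in wild type and 704 and 724 CPM in heterozygous libraries (0.43, SE 0.23, edgeR adjusted p = 0.629), and Epor 57.2 and 45.9 against 66.1 and 99.96 CPM (0.43, SE 0.39, edgeR adjusted p = 0.902). Ermap, Gata1 and Klf1 had log2 fold changes of 0.15, -0.05 and -0.03. Kat8 itself was too low to test: it had 3 and 2 transcripts in the wild type sums, or 10.1 and 11.5 CPM, and 5 and 6 in the heterozygous sums, or 13.8 and 17.6 CPM. These counts do not show a lower Kat8 level in heterozygous wells and cannot check the genotype labels, the more so as 3′ counts depend on where the allele is altered.

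**Figure D4:**
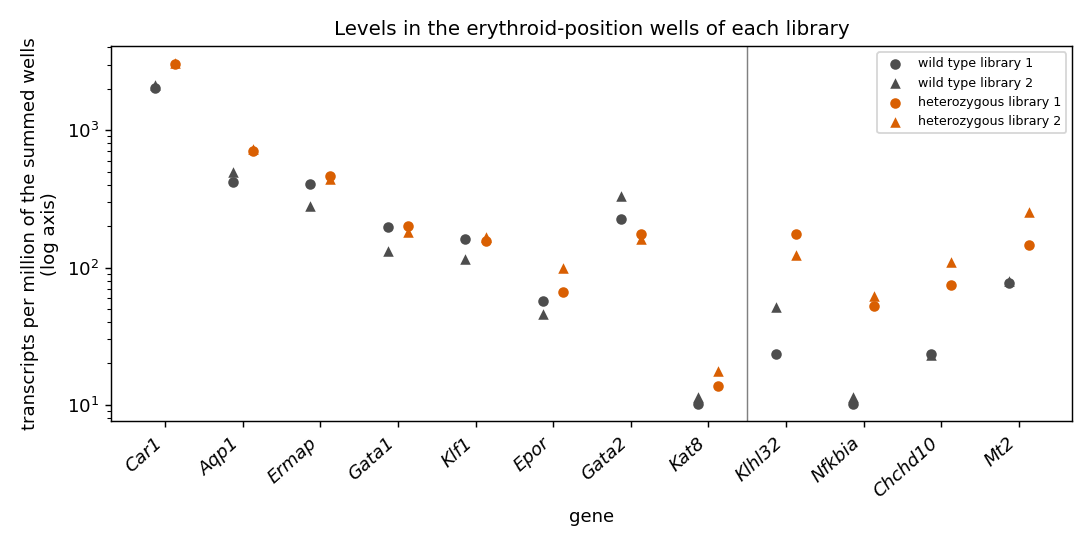
CPM of the summed erythroid-position wells (log axis) for each of the 4 libraries, circles for library 1 and triangles for library 2 of a genotype. Left of the line are the 6 markers, Gata2 and Kat8, and right of it 4 genes that passed the test, among which Klhl32 was 23.5 and 51.6 in wild type and 176 and 123 in heterozygous libraries.

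Across all genes, 114 of 4834 (2.36%) passed edgeR's test at an adjusted p under 0.05, 11 higher in heterozygous wells (0.228%) and 103 lower (2.13%), and 399 had an unadjusted p under 0.05. Libraries of the genotypes did not overlap for 45.5% of tested genes. With 2 residual degrees of freedom the test rests on a spread pooled over all genes. DESeq2 called 56 genes, limma-voom 69, and edgeR 66 without wild type library 2. With the barcode set that a wild type and a heterozygous library share as a block, 5 genes were higher and 99 lower. Predicted models, taken as genes named Gm and a number, by a clone (RP23 or RP24) or ending in Rik, made up 78 of the 114, with 77 of them lower. Gm10800 was the most abundant, at 96402 and 154135 CPM against 32878 and 27350 CPM, a log2 fold change of -2.30 (SE 0.37, edgeR adjusted p = 6.91e-08). Without the 13 wells rich in Gm10800, only 2 of 4768 genes passed (0.0419%), Klhl32 and the model Gm43541, both higher, and 0 were lower. That comparison kept 22 wild type and 36 heterozygous wells. Of 63 lower genes with a value in both fits, the median log2 fold change went from -2.15 to -0.44.

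**Figure D5:**
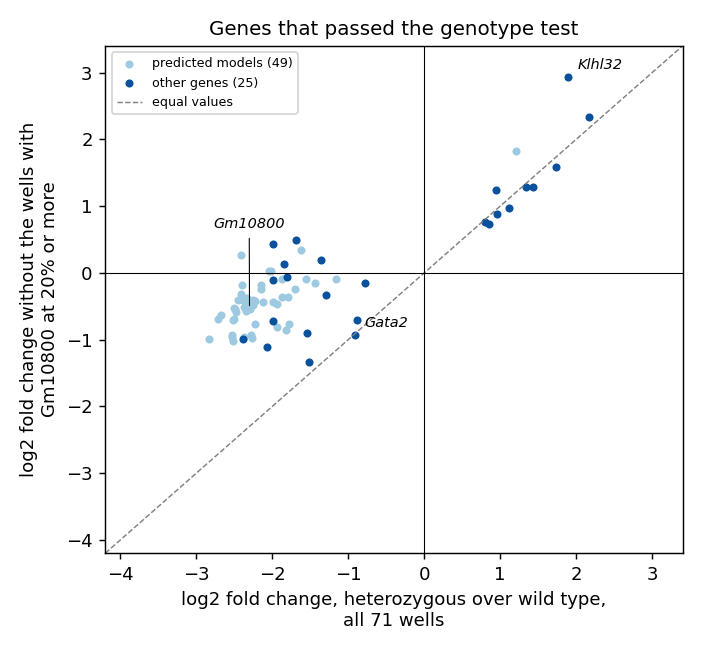
Log2 fold change, heterozygous over wild type, of 74 genes that passed with all 71 wells (horizontal) and their value without the 13 wells in which Gm10800 reached 20% (vertical), with the line of equal values dashed. Of the 74, 69 are closer to 0 on the vertical axis, and Klhl32 lies above the line.

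Klhl32, a kelch protein thought to serve ubiquitin ligases, passed with all 71 wells and without the 13. Its sums were 23.5 and 51.6 CPM in wild type libraries and 176 and 123 CPM in heterozygous libraries, which did not overlap (log2 fold change 1.90, SE 0.38, edgeR adjusted p = 5.47e-05). It was seen in 5 of 19 and 5 of 15 wild type wells and in 13 of 19 and 11 of 18 heterozygous wells, and the highest single well held 11 transcripts. The wild type wells held 16 transcripts of Klhl32, 56.3% of them in the wells rich in Gm10800. Its fold change without the 13 wells therefore rests on few wild type transcripts. The value was 2.94 (SE 0.47, edgeR adjusted p = 0.00382) without the 13 wells, and 1.24 without wild type library 1, where it no longer passed (edgeR adjusted p = 0.204). DESeq2 did not call it (adjusted p = 0.191). At the other plate2 positions it was 35.4 and 20.4 CPM in wild type and 125 and 160 CPM in heterozygous libraries, and the genotype effects of the position classes did not differ beyond error (log2 difference -0.27, SE 0.61, edgeR adjusted p = 1). The HSC libraries gave another order at the same positions, 948 and 123 CPM in wild type and 175 and 240.0 CPM in heterozygous libraries.

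The other 9 higher genes that are not predicted models did not pass without the 13 wells, though their values kept their direction and a similar size. Nfkbia, the inhibitor of NF-kappa-B, had 10.1 and 11.5 CPM in wild type and 52.4 and 61.7 CPM in heterozygous libraries, a log2 fold change of 2.16 (SE 0.65, edgeR adjusted p = 0.0395) from 5 and 40 transcripts. Chchd10, a mitochondrial cristae protein, had 23.5 and 22.9 against 74.4 and 109 CPM (1.73), and Nbn, of the DNA break repair complex, 30.3 and 28.7 against 96.5 and 91.1 CPM (1.43). Mt2 had 77.4 and 80.3 against 146 and 254 CPM (1.11, SE 0.30, edgeR adjusted p = 0.0105). Bex4, Syt11 and the translation factor Eif3i rose by 1.33, 0.94 and 0.85, and Rpl13a-ps1 and Rpl36-ps3, copies of ribosomal protein genes that can share reads with them, by 0.95 and 0.80. Without the 13 wells the values were 2.33 for Nfkbia, 1.59 for Chchd10, 1.29 for Nbn, 0.97 for Mt2, 1.28 for Bex4, 1.24 for Syt11, 0.73 for Eif3i, 0.88 for Rpl13a-ps1 and 0.76 for Rpl36-ps3, with edgeR adjusted p from 0.782 to 0.865. The SE without the 13 wells was 0.65 for Nfkbia and 0.32 for Mt2. In that fit 2 genes passed against 114 with all wells, and each adjusted p depends on the p-values of all genes in a fit. Its pooled spread had 25.7 prior degrees of freedom, which were unlimited with all wells. With the barcode set as a block Nfkbia, Nbn, Bex4, Syt11, Eif3i and Rpl36-ps3 did not pass (edgeR adjusted p from 0.0563 to 0.114). None of these was called by DESeq2 or limma-voom.

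Of the 26 lower genes that are not predicted models, 20 had at least 50% of their wild type transcripts in the wells rich in Gm10800, and the median share was 67.4%, against 7.14% over all tested genes and 21.3% of all wild type transcripts. The 10 largest falls were Lpin1 (-3.02), AI838599 (-2.71), Grk4 (-2.69), Usp29 (-2.65), Ikzf4 (-2.56), Nrp2 (-2.46), Gimap1 (-2.39), the olfactory receptor Olfr613 (-2.17), the homeobox gene Rhox8 (-2.10) and Tmem220 (-2.08). In heterozygous libraries they stood at 2.75 to 52.4 CPM. Without the 13 wells 8 of these 10 were too low to test, Gimap1 had -0.99 and Tmem220 -1.11, neither passing. Lpin1 differs from the rest, with 20% of its wild type transcripts in those wells and 20 transcripts in all.

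Gata2 was the 1 gene of the 17 tested erythroid and megakaryocyte transcription factors that passed. It had 225 and 333 CPM in wild type and 176 and 162 CPM in heterozygous libraries, which did not overlap, a log2 fold change of -0.91 (SE 0.25, edgeR adjusted p = 0.0112). The largest single wells held 19 of 67 transcripts in wild type library 1 and 16 of 58 in wild type library 2. Over single wells the medians were 113 and 90.4 CPM in wild type and 133 and 120.3 CPM in heterozygous libraries. The wild type medians include the 12 wild type wells rich in Gm10800, which held 8.79% of the wild type Gata2 transcripts. Single wells ran up to 1370 and 2283 CPM in wild type and 510 and 717 CPM in heterozygous libraries. What part of the higher sums came from the highest wells was not tested. The genotypes filled the high-Gata2 positions unevenly, as given above, and within positions the genotypes went either way. Gata2 summed over wells of a position was 395 CPM in wild type and 381 CPM in heterozygous wells at position 10, 613 and 384 CPM at position 3, and 749 and 54.9 CPM at position 12. It was 210.1 and 261 CPM at position 5, 127 and 229 CPM at position 11, 107 and 102 CPM at position 1, and 85.1 and 87.1 CPM at position 4. Each of these sums rests on 2 to 10 wells, and no test was made within positions. Without the 13 wells the value was -0.93 but did not pass (edgeR adjusted p = 0.782), and it did not pass without wild type library 2 (-0.60, edgeR adjusted p = 0.767), heterozygous library 1 (0.222) or heterozygous library 2 (0.412).

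The remaining lists held 1 further call, mt-Atp8 at -0.89 (SE 0.23, edgeR adjusted p = 0.00678), a subunit of the mitochondrial ATP synthase. The mitochondrially encoded list was negative in 13 of 15 genes (median -0.30), and without the 13 wells positive in 0 of 15 (median -0.35, 0 calls). Cytosolic ribosomal proteins had positive fold changes in 71 of 73 tested genes (median 0.31) and the nuclear-encoded respiratory chain in 65 of 76 (median 0.25), with 0 calls in either, beside 2490 of 4834 genes and a median of 0.02 overall. Replication genes were positive in 16 of 19 (median 0.28) and genes of G2 and mitosis negative in 15 of 20 (median -0.44), also with 0 calls. The 6 markers had a median of 0.23, early erythroid enzymes and surface genes 0.01 over 22 tested, haem synthesis 0.06 over 9, and iron handling 0.04 over 8, with 0 calls. The MSL and NSL genes, partners of Kat8, had a median of -0.06 over 11 tested and 0 calls. The ribosomal protein sum was 117524 and 85482 CPM in wild type and 152036 and 135567 CPM in heterozygous libraries. These are shares of all transcripts, of which predicted models took 202277 and 282039 CPM in wild type and 105241 and 93062 CPM in heterozygous libraries. Without the 13 wells ribosomal proteins were positive in 68 of 73 (median 0.28) and the nuclear-encoded respiratory chain in 57 of 76 (median 0.15), with 0 calls.

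The genotype effect at the 7 positions was also set against that at the other plate2 positions, with library as a block. Of 6099 genes, 39 (0.639%) differed at an edgeR adjusted p under 0.05, 3 with a higher (0.0492%) and 36 with a lower value (0.590%) at the 7 positions, and 32 of them were predicted models. The count was 24 without wild type library 2 and 66 without heterozygous library 2. The 3 higher genes were Hbb-bs, Hba-a1 and S100a9, which stood high at the other positions and passed the filter on low counts there. Their calls describe the other positions and show no genotype effect at the 7 positions, where Hbb-bs and S100a9 were too low for the genotype test. Hba-a1 was tested there and did not pass (log2 fold change -0.11, SE 0.70, edgeR adjusted p = 0.990). Hbb-bs had 16.8, 5.73, 5.51 and 44.1 CPM at the 7 positions, in the order wild type 1 and 2 and heterozygous 1 and 2, against 1507, 383, 15.1 and 215 CPM elsewhere, where 4 of the 5 kept wells of the globin-rich position 16 were wild type. Mme, Nkain3 and Gimap1 were the named genes on the lower side. Mme, the surface peptidase neprilysin, had 616, 264, 154 and 112 CPM at the 7 positions against 298, 179, 258 and 207 CPM at the others, a log2 difference of -1.79 (SE 0.33, edgeR adjusted p = 0.00133), with 78.2% of its wild type transcripts at the 7 positions in the wells rich in Gm10800. Without wells at or above 20% of Gm10800 in either class, 2 of 6001 genes differed, both higher.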

How the data were processed

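The deposited tables hold expected counts, which the authors derived from molecular identifiers. Each value equalled a whole number of identifiers corrected for collisions among 4096 possible identifiers, a form found from the values themselves (largest deviation 3.64e-12 transcripts). Per the submitters' processing notes BWA 0.6.2-r126 and the build mm10 were named, with no role given. Of the annotation, the counter and any filters, nothing is stated by the labels. The tables named 19879 genes and 70 spike-in controls, and no line lacked a gene name.

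The positions and gene lists were chosen with earlier results of these data known. Wells with own barcodes and at least 1000 transcripts were kept, spike-ins left out. Counts were summed over the wells of a library and position class, rounded for the tests and scaled as CPM of the plain total. Log2 fold changes come from fits scaled by TMM and can differ from ratios of these CPM. The erythroid-position sums of the 4 plate2 libraries held 174498 to 363041 transcripts. Intervals, and the limit of 3 transcripts behind a sum of 0, cover counting error only. Sums were tested with edgeR 4.0.16 (TMM, filterByExpr, quasi-likelihood, two-sided, Benjamini-Hochberg at 0.05) in R 4.3.3, with DESeq2 1.42.0 and limma 3.58.1 (voom) as alternatives. The genotype fit held the 4 erythroid-position sums, and the other fits held 8 sums with library as a block. Tests were checked on library sums simulated from the fitted count model. That simulation held no wells rich in Gm10800, so it cannot check calls that depend on them. Thinning drew 1000 transcripts from each well with a fixed seed. Carry-over was fitted by non-negative least squares in scipy 1.17.1, and the tables were handled with Python 3.11.15, numpy 2.4.6, pandas 2.3.3 and matplotlib 3.10.9.

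The 6 markers and Kat8 were always named. From the genotype tests up to 10 genes of largest rise and fall were named, among those that passed, did not overlap between genotypes and averaged 20 CPM or more, predicted models left out. From the position description the 15 genes of highest and 10 of lowest ratio were named, with the same direction in all 4 libraries and at least 50 CPM in the higher class. From each list, examples came from the 4 members of highest level, while Gata2, Itga2b, mt-Atp8, Gm10800, Gm43541 and the genes by position were named after their values were seen. Alternatives covered scaling, tool, low-count filter, well depth, identifier correction, deepest wells, each library in turn, wells of other lineages, wells without Car1 and the barcode set as a block.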

Additional observations from a re-analysis of the deposited data

Results flagged for a closer look

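The genotype effect differed between the 7 positions and the other plate2 positions for 39 genes, by a test of the difference itself (edgeR quasi-likelihood, Benjamini-Hochberg adjusted). Values are log2 differences, heterozygous over wild type, at the 7 positions minus the others. Hbb-bs had 4.14 (SE 0.67, edgeR adjusted p = 0.000357), Hba-a1 2.76 (SE 0.61, edgeR adjusted p = 0.0128) and S100a9 5.41 (SE 1.35, edgeR adjusted p = 0.0469). Hba-a1, an alpha globin, stood at 33.6, 5.73, 0 and 49.99 CPM at the 7 positions, and at 2051, 509, 3.79 and 449 CPM at the others, in the order wild type 1 and 2 and heterozygous 1 and 2. S100a9, a calgranulin of neutrophils, stood at 3.36, 0, 8.27 and 2.94 CPM against 1890, 1397, 167 and 11.8 CPM. At the 7 positions S100a9 was thus at or under 3 transcripts in every library. Hbb-bs and S100a9 passed the filter on low counts through the other positions. Hba-a1 could be tested at the 7 positions alone and did not pass there. All 3 genes stood high at the other positions, so their values describe the other wells. On the lower side Mme had -1.79 (SE 0.33, edgeR adjusted p = 0.00133), the membrane protein gene Nkain3 -2.05 (SE 0.39, edgeR adjusted p = 0.00214) and the immune GTPase gene Gimap1 -2.09 (SE 0.51, edgeR adjusted p = 0.0406). Nkain3 stood at 276, 247, 79.9 and 73.5 CPM against 215, 102, 193.1 and 172 CPM.

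Of the 384 plate2 barcodes outside the libraries' own, which entered no comparison, 18 held at least 1000 transcripts, 11 in wild type library 1, 4 in wild type library 2, 3 in heterozygous library 1 and 0 in heterozygous library 2. Of the 18, 16 lay at the 7 positions, with at most 1473 transcripts. These barcodes made up 2.29% to 5.37% of a library's transcripts, and held 97 transcripts of Car1 at the 7 positions against 17 at the others. Their totals followed those of the libraries that owned the barcodes, as given in the report, and the origin of single transcripts was not tested.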

How the results depend on the processing

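The 114 genes of the genotype effect became 56 with DESeq2, 69 with limma-voom, 27 with wells thinned to 1000 transcripts, 69 in a layout that added the other positions, 65 without wells with 10 transcripts of other lineages, 67 in wells with Car1, 49 without models named Gm and a number and 2 without wells at 20% of Gm10800. Leaving out 1 library gave 66 (wild type library 2) to 154 (wild type library 1). The 39 differences of effect became 23 in thinned wells, 23 without the deepest wells, 59 without wells of other lineages and 2 without wells at 20% of Gm10800, and leaving out 1 library gave 24 to 66. The 0 calls in the HSC libraries became 1 with DESeq2, 14 with no low-count filter, 1 in thinned wells and 4 without the deepest wells, and leaving out 1 library gave 0 to 8. The 1228 genes higher in all 4 libraries became 307 in thinned wells and 1588 to 1915 with 1 library left out, where only 3 libraries had to be alike. The cause of the other changes was not tested. Of the other counts 31 stayed within 1.5 times, and no direction reversed. Of the values for single genes and marker shares 493 stayed as they were in direction and call or spread, 194 lost the call, 7 gained it and 11 moved, the last all in thinned wells. The Gm10800, carry-over and gene model screens, the barcode set block and a screen that did not count Calr were chosen after seeing the data.

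No paired analysis was possible because the labels give the plate2 libraries of the genotypes no shared replicate number, and the HSC comparison is made within libraries. The barcode sets, which the files show and the labels do not name as a pairing, gave 104 genes as a block. Depth limits genes near 3 transcripts in a library sum, Kat8 among them.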
